A study of Drosophila melanogaster with 4 samples.

Results

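The Antennapedia complex (ANT-C) and the bithorax complex (BX-C) hold the Hox genes of Drosophila melanogaster on chromosome arm 3R. They were chosen by position, as 720 windows of 1 kb out of 168724 such windows in the sequences named in the file headers. ANT-C was taken as 3R from 2480001 to 2860000, which is 380 windows, and BX-C as 3R from 12470001 to 12810000, which is 340 windows, on FlyBase release 5. The value of each window is the percent of its bases inside a cluster, a stretch that the authors listed as enriched for trimethylated lysine 9 of histone H3 (H3K9me3). The complexes were proposed with results of these cluster lists in view, so their coverage is given as a description with no test.

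H3K9me3 was profiled by chromatin immunoprecipitation and sequencing (ChIP-seq) in head nuclei of wild-type Oregon-R adults, labelled as a mixed stage, raised in cages on a cycle of 22 days and with no sex given. There were 2 ChIP libraries and 2 input libraries, and no group carried a treatment or a mutation. The titles of all libraries, inputs included, carry the words 'H3K9me3 new lot', and they do not say what the lot is. Heads were sieved from whole flies and hold many cell types, so a cluster seen here could come from a part of the cells. The labels do not say that the replicates came from separate flies or chromatin, and the differences between the 2 lists may be technical. The cluster lists hold no expression values, and the labelled tissue could not be checked by marker genes.

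Hox genes encode homeodomain transcription factors that give body segments their identity, and each is kept silent outside its own segments. That silencing is the classic work of Polycomb group proteins, which deposit trimethylation of lysine 27 of histone H3 over whole Hox complexes. H3K9me3 belongs to a different system: it is the mark bound by Heterochromatin Protein 1 in the repeat-rich chromatin around centromeres. Lysine 27 methylation and Polycomb proteins were not measured here.

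In the RefSeq gene table of Release 6, 44 genes run from lab to Antp in ANT-C. The Hox genes among them are lab, pb, Dfd, Scr and Antp, in that order; labial, proboscipedia, Deformed and Sex combs reduced act in the head and front thorax, and Antennapedia in the thorax. Between pb and Dfd lie zen2, zen and bcd, homeobox genes that have left segment identity (bicoid sets up the front end of the embryo), and between Scr and Antp lies ftz, a pair-rule gene. ANT-C also holds the cuticle protein genes Ccp84Aa to Ccp84Ag, the cell adhesion gene Ama and the microRNA gene mir-10. BX-C has 16 genes in the same table, from Ubx through abd-A to Abd-B; Ultrabithorax acts in the rear thorax, and abdominal-A and Abdominal-B in the abdomen. Of the 16, 7 are long noncoding RNA genes, among them lncRNA:bxd, lncRNA:iab4 and lncRNA:iab8, and 2 are the microRNA genes mir-iab-4 and mir-iab-8. The table is of another build than the clusters, so it gives names and order alone, and no cluster was assigned to a gene.

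Each complex was analysed in 3 lists of clusters that the authors deposited: one for each ChIP replicate and one for the series, called the combined set here. In the combined set both complexes were dense with clusters. ANT-C was 39.3% covered and BX-C 40.4%, against 9.58% of the rest of 3R, which leaves out both complexes and the 300 kb on each side of them. In the replicates coverage was far lower. ANT-C was 7.86% covered in replicate 1 and 8.56% in replicate 2, which is 8.21% ± 0.50 (SD, n = 2). BX-C was 8.48% covered in replicate 1 and 7.01% in replicate 2, which is 7.74% ± 1.04 (SD, n = 2). The rest of 3R was 4.58% and 3.90% covered, below both complexes in each replicate. Relative to the rest of 3R, ANT-C was covered 1.94 times as much in the replicate mean and 4.11 times as much in the combined set, and BX-C 1.83 and 4.22 times as much.

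Over their full length the complexes did not differ from each other beyond the replicate spread. ANT-C minus BX-C was -0.62 percentage points in replicate 1 and 1.55 points in replicate 2, a mean of 0.47 ± 1.53 (SD, n = 2), and it was -1.10 points in the combined set. The sign therefore depended on the list when the complexes were taken whole. With 20 kb trimmed from each end of each complex the difference was 1.23 points ± 0.45 (SD, n = 2), larger than its SD.

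**Figure D1:**
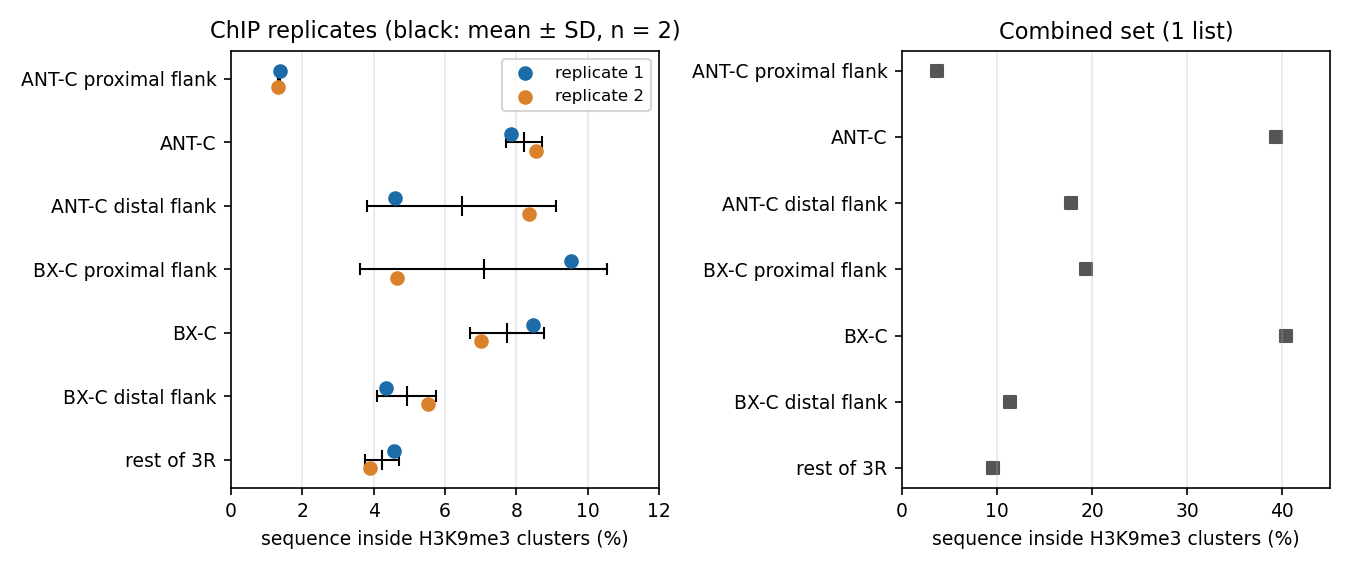
Percent of sequence inside H3K9me3 clusters (x axes) for each complex, the 300 kb on its 2 sides and the rest of 3R. Left, ChIP replicates as points with mean ± SD (n = 2); right, the combined set, where ANT-C (39.3%) and BX-C (40.4%) lie far from their flanks, the nearest of which is at 19.4%.

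Against their surroundings the complexes stood out clearly in the combined set and less so in the replicates. The 300 kb on the centromere side of ANT-C was 1.36% covered in replicate 1 and 1.32% in replicate 2, with 3.65% in the combined set. The 300 kb on its telomere side was 4.59%, 8.34% and 17.7% covered. ANT-C thus exceeded its centromere-side flank by 6.87 points ± 0.53 (SD, n = 2) and its telomere-side flank by 1.74 points ± 2.16, a difference smaller than its own SD. With both flanks pooled the difference was 4.31 points ± 0.81 in the replicates and 28.6 points in the combined set.

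The centromere-side flank of BX-C was 9.53% covered in replicate 1 and 4.64% in replicate 2, with 19.4% in the combined set, and the telomere-side flank was 4.34%, 5.52% and 11.4% covered. In replicate 1 the centromere-side flank was thus more covered than BX-C itself. BX-C exceeded its flanks together by 1.73 points ± 0.28 (SD, n = 2) in the replicates and by 25.1 points in the combined set. Against the centromere-side flank alone the difference was 0.66 points ± 2.42, within its own SD, and against the telomere-side flank it was 2.81 points ± 1.87.

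The place of the complexes within the arm also depended on the list. Stretches of the length of ANT-C were laid along 3R in steps of 20 kb, a description added after seeing the data. Of 1304 such stretches clear of both complexes, none reached the ANT-C coverage in the combined set, and the highest was 31.2%. For BX-C none of 1310 stretches did, and the highest was 34.1%. By the replicate mean, 122 of the 1304 stretches were at or above ANT-C and 152 of the 1310 were at or above BX-C. Stretches overlap one another and are not independent.

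Coverage of the combined set was built from many short clusters. ANT-C held 83 combined clusters and BX-C held 76, which is 218 and 224 clusters per Mb against 42.8 per Mb in the rest of 3R. The replicates listed 17 and 19 clusters in ANT-C and 16 and 14 in BX-C, or 47.4 ± 3.72 and 44.1 ± 4.16 per Mb (SD, n = 2), against 18.7 ± 2.26 in the rest of 3R. Density in the combined set was thus 4.61 times the replicate mean in ANT-C, 5.07 times in BX-C and 2.29 times in the rest of 3R. The narrowest cluster on 3R was 1001 bp in the combined set and 1301 bp in each replicate. These densities therefore count clusters of unlike minimum width. Median width was 1632 bp in ANT-C and 1557 bp in BX-C in the combined set, against 1806 bp in the rest of 3R. Neighbouring combined clusters lay a median of 2020.5 bp apart in ANT-C and 1679 bp apart in BX-C, with 4701 bp over the whole arm.

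**Figure D2:**
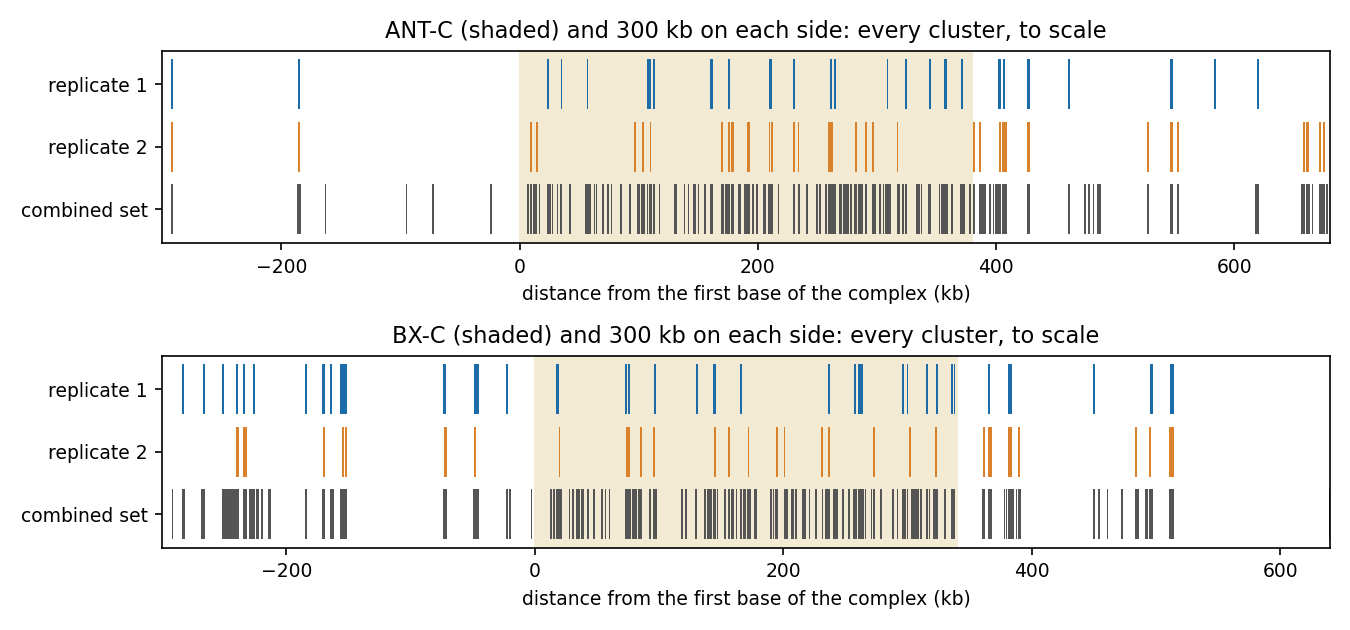
Every cluster of each list, drawn to scale along the complexes (shaded) and 300 kb on each side; the x axis is the distance in kb from the first base of the complex. The combined set has 83 clusters in ANT-C and 76 in BX-C, while each replicate has 14 to 19 in either complex, often at different places.

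Scores, which are the authors' own value per cluster on a scale that is not stated, spanned a narrow range in the complexes. In the combined set the median score was 0.43 in ANT-C and 0.44 in BX-C, close to the 0.42 of the rest of 3R, and the 10th to 90th percentiles were 0.38 to 0.50 and 0.36 to 0.51, against 0.31 to 0.60. The highest combined score was 0.57 in ANT-C and 0.67 in BX-C, whereas the arm reached 3.61. Of the ANT-C clusters 8 of 83 (9.64%) scored at or above the median of the combined set over all sequences, as did 12 of 76 (15.8%) in BX-C and 250 of 1111 (22.5%) in the rest of 3R. In the replicates 1 of 17 and 0 of 19 ANT-C clusters and 0 of 16 and 0 of 14 BX-C clusters reached the median of their list, and few did in the rest of 3R either (47 of 527, or 8.92%, and 34 of 444, or 7.66%). Median scores in the replicates were slightly above those of the rest of 3R: 0.65 in ANT-C and 0.65 in BX-C against 0.60 in replicate 1, and 0.64 and 0.64 against 0.62 in replicate 2.

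The highest-scoring clusters of the flanks stood on the telomere side. Beyond ANT-C, 45.6 kb from its limit, a cluster from 2905643 to 2908647 scored 1.38 in the combined set, and its counterparts scored 1.27 in replicate 1 and 1.52 in replicate 2. Beyond BX-C, 171 kb from its limit, one from 12980704 to 12984930 scored 1.06, 1.12 and 1.18. In every list each of these exceeded all clusters inside the complexes. The pair was singled out after its values were seen. On the centromere side, the highest score beside ANT-C was 0.60 in the combined set, above the 0.57 of ANT-C. Beside BX-C it was 0.80 in replicate 1, above the 0.78 of BX-C. In the remaining lists the highest score of each centromere-side flank was below that of its complex.

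**Figure D3:**
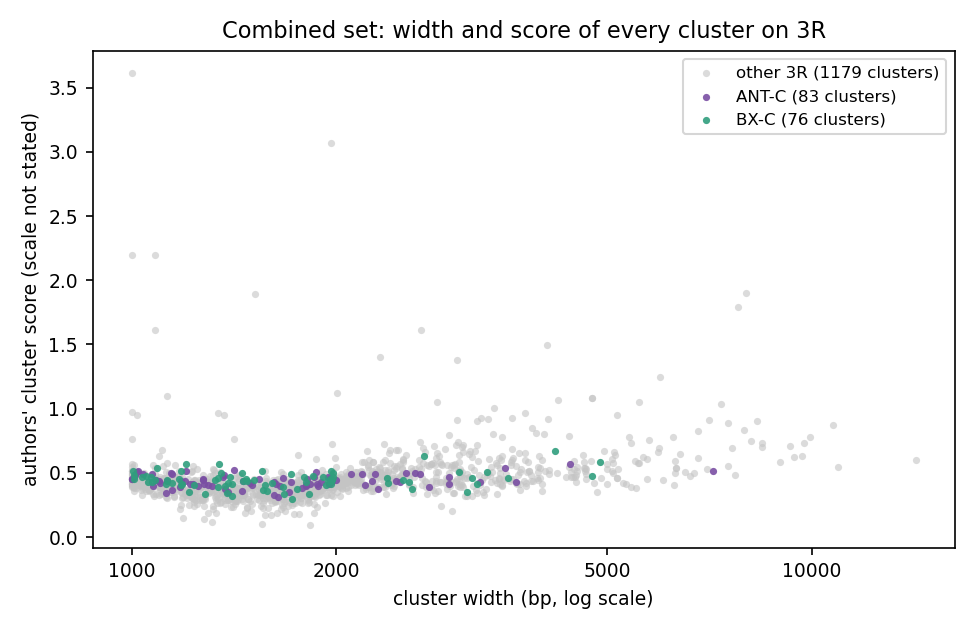
Width (x axis, bp, log scale) and authors' score (y axis) of every combined-set cluster on 3R, with those of ANT-C and BX-C in colour. The clusters of the complexes lie in a narrow band of scores, up to 0.57 and 0.67, and their median widths are 1632 and 1557 bp.

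The replicates rarely marked the same places inside the complexes. In ANT-C 5 of 17 replicate 1 clusters (29.4%) were found in replicate 2 by at least 1 bp, and 6 of 19 replicate 2 clusters (31.6%) were found in replicate 1. In BX-C these were 6 of 16 (37.5%) and 5 of 14 (35.7%). In the rest of 3R they were 326 of 527 (61.9%) and 324 of 444 (73.0%). The sequence in both replicates was 13.2% of that in either in ANT-C and 19.7% in BX-C, against 46.2% in the rest of 3R, where coverage was lower. Around the complexes it was 34.8% in the flanks of ANT-C and 38.0% in those of BX-C.

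Window calls showed the same split. A 1 kb window was called when at least 50% of it was inside clusters. In replicate 1, 33 ANT-C windows (8.68%) and 30 BX-C windows (8.82%) were called, against 4.76% of the 27905 windows of 3R. In replicate 2, 32 (8.42%) and 25 (7.35%) were called, against 4.08%. Calls in both replicates numbered 8 in ANT-C (2.11%) and 9 in BX-C (2.65%), next to 2.71% for 3R, so at this threshold the share marked in both was near the background of the arm. Windows with any base in clusters of both replicates numbered 13 in each complex (3.42% of ANT-C and 3.82% of BX-C), against 3.93% of 3R. Those wholly inside clusters of both replicates numbered 1 in ANT-C (0.263%) and 1 in BX-C (0.294%), below the 1.39% of 3R. Calls in exactly 1 replicate made up 12.9% of ANT-C windows and 10.9% of BX-C windows, against 3.42% over 3R.

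In the combined set 153 ANT-C windows (40.3%) and 141 BX-C windows (41.5%) were called, against 10.6% of 3R. Of these, 99 in ANT-C and 97 in BX-C were called in neither replicate, which is 26.1% and 28.5% of the windows, against 4.68% of 3R. Windows wholly inside combined clusters numbered 65 in ANT-C and 62 in BX-C (17.1% and 18.2%, against 5.72%). At the other end, 161 ANT-C windows (42.4%) and 142 BX-C windows (41.8%) held no cluster base in any of the 3 lists, against 85.1% of 3R. Of all 720 windows, 303 were untouched by any list, 196 were called in the combined set and in neither replicate, and 17 were called in both replicates.

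**Figure D4:**
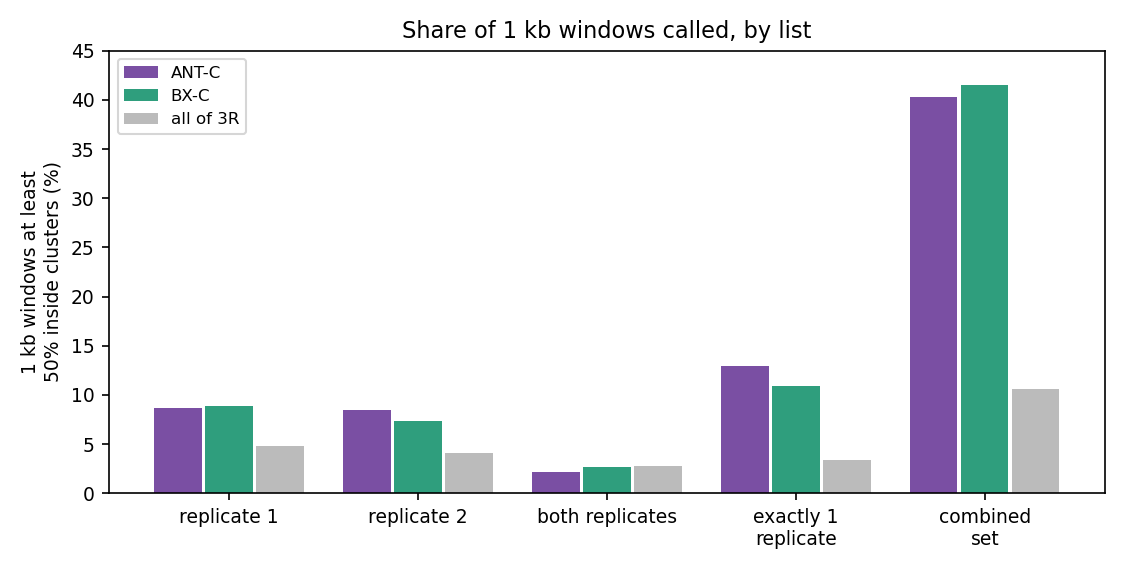
Share of 1 kb windows (y axis, %) at least 50% inside clusters, in ANT-C, BX-C and all of 3R, for each list and for windows called in both or in exactly 1 replicate. Both complexes lie above the arm in every column except that for both replicates, where they are at 2.11% and 2.65% against 2.71%.

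Seen from the combined set, most clusters of the complexes had no counterpart in a replicate. In ANT-C 5 of 83 overlapped clusters of both replicates, 14 overlapped replicate 1 but not 2, 11 overlapped replicate 2 but not 1, and 53 (63.9%) overlapped neither. In BX-C these numbers were 6 of 76, 9, 7 and 54 (71.1%). For the rest of 3R the share found in neither was 46.1% and that found in both 27.4%, against 6.02% in ANT-C and 7.89% in BX-C. Clusters found in both were the widest, with a median of 2924 bp in ANT-C and 3099 bp in BX-C (1452 and 1399 bp for those found in neither). The same held in the rest of 3R, with 3029 bp for those found in both and 1344 bp for those found in neither. Nearly all replicate clusters recurred in the combined set: 17 of 17 and 18 of 19 in ANT-C, and 16 of 16 and 13 of 14 in BX-C, as did 521 of 527 and 439 of 444 in the rest of 3R. How the combined set was made is not given in the sources used here, and it is not independent of the replicates. It also holds clusters narrower than any replicate cluster on 3R (from 1001 bp, against 1301 bp), so the lists are not alike in width.

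In all, 12 segments of the complexes were inside clusters of both replicates, 6 in each complex. They made up 7300 bp (1.92%) of ANT-C and 8673 bp (2.55%) of BX-C, no more than the 2.68% of the rest of 3R. In ANT-C they ran from 2589339 to 2590620, 2655301 to 2656212, 2689360 to 2690482, 2691152 to 2692123, 2709548 to 2710916 and 2740862 to 2742503. Their lengths were between 912 and 1642 bp, and all began between 109 and 261 kb from the first base of the complex. In BX-C they ran from 12543147 to 12544451, 12544800 to 12546960, 12565667 to 12566921, 12614022 to 12615757, 12706073 to 12707382 and 12793217 to 12794122, with lengths between 906 and 2161 bp. These were spread over most of BX-C, and each of the 12 was wholly inside combined clusters.

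The longest of the 12 segments, 2161 bp, began at 12544800 in BX-C. The combined cluster there, from 12542924 to 12547106 (4.18 kb), had the highest score of BX-C, 0.67, and was 86.3% covered in replicate 1 and 92.4% in replicate 2. Its counterpart in replicate 2 was both the longest (3.87 kb) and the highest-scoring (0.77) of BX-C in that list. In ANT-C the highest combined score, 0.57, belonged to the cluster from 2688697 to 2693111 (4.42 kb), which was 62.6% covered in replicate 1 and 72.4% in replicate 2. The replicate 1 cluster inside it, from 2689360 to 2692123, was the longest (2.76 kb) and highest-scoring (0.85) of ANT-C in that list.

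ANT-C had its longest combined cluster, 7.15 kb, between 2738765 and 2745914, scoring 0.51. It was 51.2% covered in replicate 1 and 55.9% in replicate 2. The next in length after 2688697 to 2693111 were seen in one replicate or none: 2581568 to 2585241 (3.67 kb) was 0% and 42.4% covered, 2534806 to 2538342 (3.54 kb) was 39.7% and 0% covered, and 2751694 to 2754944 (3.25 kb) was 0% covered in both.

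BX-C had the same mixture among its longest combined clusters. The longest, from 12729900 to 12734780 (4.88 kb, score 0.58), was 81.2% covered in replicate 1 and 0% in replicate 2, although its replicate 1 counterpart, 3.96 kb long, was the longest of BX-C in that list. The one from 12790204 to 12794945 (4.74 kb) was 36.5% and 42.3% covered. Those from 12684867 to 12688435 (3.57 kb) and from 12726113 to 12729438 (3.33 kb) were 0% and 0%, and 59.3% and 0% covered.

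Blocks of 20 kb showed clusters of the combined set throughout both complexes, though at uneven coverage. ANT-C has 19 such blocks and BX-C 17, and every one of the 36 held at least 1 combined cluster and exceeded the 3R median of 2.65%. Coverage ran from 14.8% to 71.8% in ANT-C, with a median of 39.1%, and from 9.80% to 58.3% in BX-C, with a median of 44.4%. In ANT-C 14 blocks and in BX-C 10 blocks reached the coverage of the top 10% of the 1395 blocks of 3R. In the replicates the same blocks were patchy: 8 of 19 in ANT-C and 5 of 17 in BX-C had no cluster in replicate 1, with the same numbers in replicate 2, but 3 and 2 blocks had none in both. Over 3R 940 of 1395 blocks had none in replicate 1, 994 had none in replicate 2 and 877 had none in both. By the combined set 685 of the 1395 had none.

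**Figure D5:**
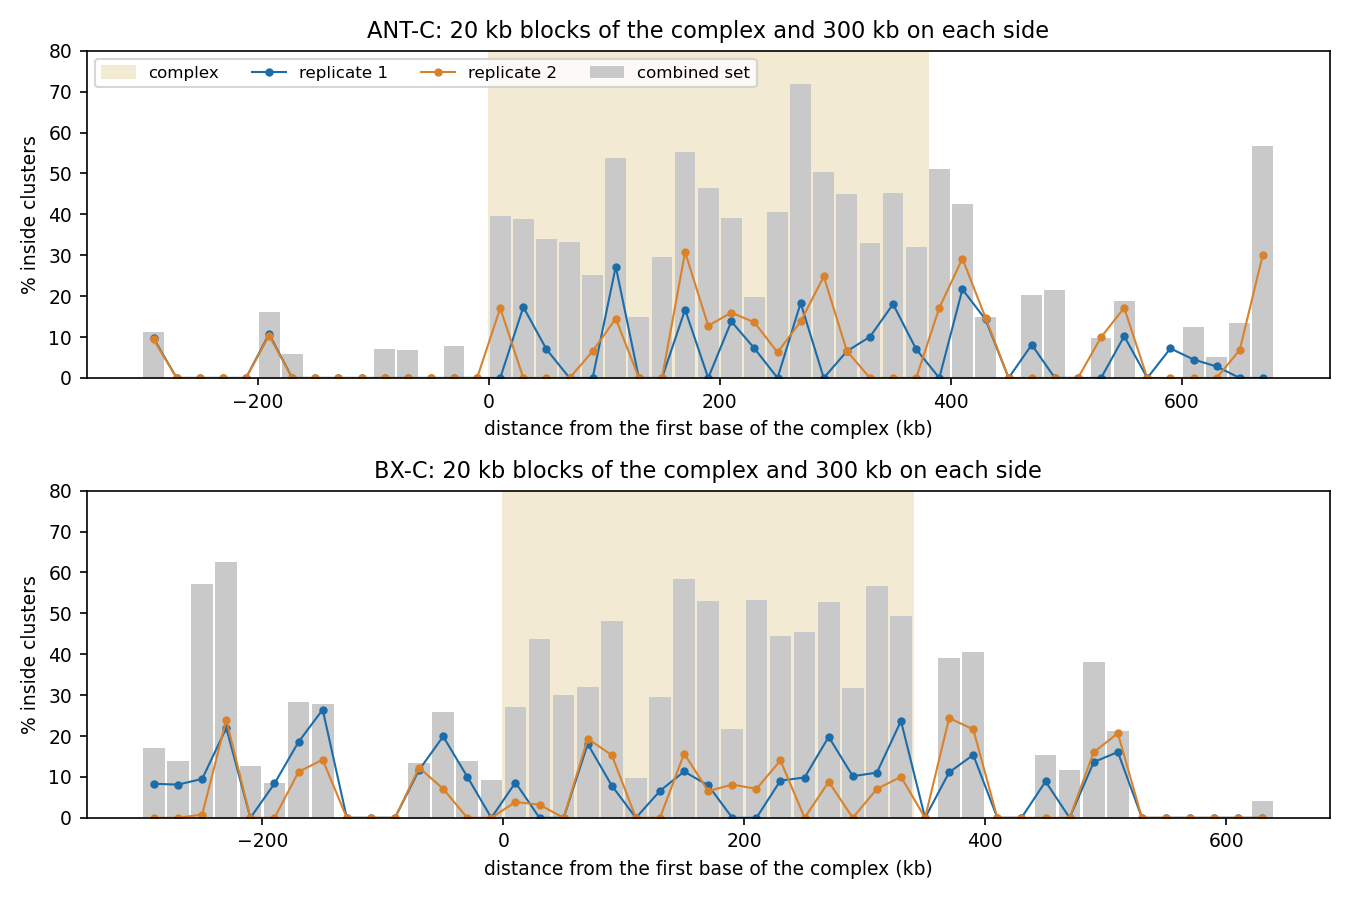
Percent of each 20 kb block inside clusters (y axis) along ANT-C, BX-C and 300 kb on each side; the x axis is the distance in kb from the first base of the complex (shaded). Bars are the combined set, at 14.8% to 71.8% inside ANT-C and 9.80% to 58.3% inside BX-C; points are the 2 replicates, which alternate between 0% and at most 30.8%.

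The most covered blocks of ANT-C by the replicate mean were 2640001 to 2660000, at 16.7% in replicate 1 and 30.8% in replicate 2, and 2580001 to 2600000, at 27.2% and 14.5%. The third, 2740001 to 2760000, was 18.3% and 13.8% covered, and at 71.8% it was also the densest of either complex in the combined set. The 3 least covered blocks had no replicate cluster yet were reached by the combined set: 2540001 to 2560000 at 33.3%, 2620001 to 2640000 at 29.6% and 2600001 to 2620000 at 14.8%. The telomere-side end of ANT-C, singled out after its values were seen, was marked by replicate 1 alone. From 2800001 to 2860000 replicate 1 covered 10.1%, 18.0% and 7.03% of successive blocks and replicate 2 covered 0% of each.

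In BX-C the block from 12530001 to 12550000 led, at 18.1% in replicate 1 and 19.3% in replicate 2, a spread of 0.91 (SD, n = 2). It was followed by 12790001 to 12810000, at 23.7% and 10.0%, and 12730001 to 12750000, at 19.8% and 8.82%. The least covered were 12510001 to 12530000 and 12570001 to 12590000, with no cluster in either replicate, and 12490001 to 12510000, at 0% and 3.20%. In the combined set these were 30.1%, 9.80% and 43.8% covered, so a block nearly empty in both replicates could hold 7 combined clusters. Across the blocks of a complex the replicates' values had a Spearman correlation of 0.11 in ANT-C (n = 19) and 0.49 in BX-C (n = 17), against 0.76 over the 1395 blocks of 3R, which include many at 0% in both; neighbouring blocks share clusters, and no p was computed.

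The longest intervals with no cluster in either replicate were 46.4 kb in ANT-C (2593811 to 2640191) and 52.4 kb in BX-C (12490641 to 12543001). The combined set placed 7 clusters in the first, covering 21.8% of it, and 12 in the second, covering 28.5%. Next in ANT-C came 2537690 to 2576148 (38.5 kb, 32.7% in the combined set) and 2714757 to 2738751 (24.0 kb, 31.3%). In BX-C they were 12567239 to 12599766 (32.5 kb, 16.4%) and 12671719 to 12700580 (28.9 kb, 43.5%).

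At the edges the step in the combined set was steep on the centromere side of ANT-C. The block before the complex, 2460001 to 2480000, held no cluster in any list, and the first block inside was 39.6% covered in the combined set, 0% in replicate 1 and 17.1% in replicate 2. On the telomere side there was no step at the edge: the last block inside was 32.1% covered in the combined set and the next blocks outside were 51.1% and 42.5% covered. BX-C went from 9.21% in the block before it to 27.1% in its first block. At its other edge it went from 49.4% in its last block to 0% in the block after it. That block, 12810001 to 12830000, held no cluster in any list. Coverage then rose again outside BX-C: 12830001 to 12850000 and 12850001 to 12870000 were 39.0% and 40.6% covered in the combined set. In replicate 1 they were 11.1% and 15.4% covered, and in replicate 2 24.4% and 21.6%. The block after them, 12870001 to 12890000, held no cluster in any list.

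Joining combined clusters at most 10 kb apart, a setting chosen after seeing the data, gave runs defined without the limits of the complexes. They broke each complex into pieces. The ANT-C runs of 63.4, 88.2 and 180 kb began 54.8, 130 and 229 kb inside its centromere-side limit, in that order. A shorter run came before them, and its first cluster began 6.64 kb inside that limit. The longest of the 499 runs on 3R was one of 180 kb with 44 clusters, from 2709097 to 2889143, which reached 29.1 kb beyond the telomere-side limit of ANT-C. Second was one of 149 kb with 37 clusters, from 12659666 to 12808677, which ended 1.32 kb inside the limit of BX-C. ANT-C also held runs of 88.2 kb and 63.4 kb, and BX-C one of 61.7 kb. Each complex held shorter runs as well, which are not listed here. With neighbours up to 20 kb apart joined, the longest 2 of 329 runs were one of 422 kb over ANT-C (2486639 to 2908647) and one of 362 kb over BX-C (12446708 to 12808677). With at most 5 kb, the longest of 650 runs was a stretch of 89.8 kb in BX-C, and the longest in ANT-C, 62.9 kb, was number 5 in length.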

How the data were processed

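The deposited files were 3 lists of clusters with a start, an end and a score, 1 per ChIP replicate and 1 for the series. The score column is as the authors deposited it, on a scale that is not stated, and served to describe, rank and filter within a list. The alignment used Bowtie 0.12.7 (per the submitters' processing notes) and FlyBase release 5 coordinates (per the file headers). The sources used here do not name the cluster caller, its threshold or how inputs entered. The files give no read counts, so depth is unknown and counting error could not be given. The inputs were not analysed here.

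Coordinates are 1-based. Percent covered is bases inside clusters over all bases, computed with Python 3.11.15 and numpy 2.4.6 (Spearman correlations with scipy 1.17.1, figures with matplotlib 3.10.9), and a cluster counted as inside a region or found in another list at an overlap of at least 1 bp. Arm blocks of 20 kb were counted from base 1 of 3R, and blocks of a complex from its own first base. The interval code was checked on 50 simulated lists and returned the planted answer in 50. The members and lists were chosen with earlier results of these data known. Named in full were the 3 most and 3 least covered blocks of each complex by the replicate mean, the 5 longest and the highest-scoring combined clusters, the longest cluster of each replicate and the 3 longest intervals free of replicate clusters. Coverage of single genes was planned but not computed, because the gene table is of Release 6. It matched 10 of 10 listed symbols for ANT-C and 5 of 8 for BX-C. The BX-C list included mir-10, which lies in ANT-C. It also wrote bxd, iab-4 and iab-8, which the gene table holds as lncRNA:bxd, lncRNA:iab4 and lncRNA:iab8. A missed symbol is thus not a gene absent from the table. The alternatives kept clusters by score (from the file median up) or by width (from 1 kb up), joined neighbours within 1 kb, or used the combined set, each replicate alone, flanks of 100 kb, other window thresholds, 10 kb blocks, edges trimmed by 20 kb or an overlap of 50% of the width.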

Additional observations from a re-analysis of the deposited data

How the results depend on the processing

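No paired analysis was possible because the inputs that share the replicate numbers have no file here and no test compared groups. Over 15 results, 61 values were recomputed. Of these, 32 stayed within the replicate spread (counts within 1.5 times), 27 moved further and 2 reversed. A value was counted as reversed when its sign changed and the reported difference was larger than its SD. Both reversals were differences from the flanks. Part of the 32 could not have moved. With 2 replicates, either value alone lies within 1 SD of their mean. Coverages and differences with 1 replicate left out were therefore bound to stay within the spread. A minimum width of 1 kb removed nothing, so its values could not move either. When clusters scoring below their file median were dropped, coverage was 0.364% in ANT-C and 0% in BX-C. No window was then called in both replicates (0 and 0), and the combined set kept 8 and 12 clusters. The difference from the flanks became -0.12 points ± 0.52 (SD, n = 2) for ANT-C, a sign within its own SD. For BX-C it reversed to -0.84 points ± 0.21 (SD, n = 2). The complexes' coverage therefore rests mostly on clusters scoring below their file median. This is not particular to the complexes: in the rest of 3R only 8.92% and 7.66% of replicate clusters reached that median. In the combined set coverage was 39.3% and 40.4%, ANT-C minus BX-C was -1.10 points, the differences from the flanks were 28.6 and 25.1 points, and 153 and 141 windows were called; the cause of these larger values was not tested. Against flanks of 100 kb the differences were 2.95 points for ANT-C and 1.07 points ± 0.84 (SD, n = 2) for BX-C. With 1 replicate left out, called windows numbered 32 to 33 in ANT-C and 25 to 30 in BX-C, since a window then needed 1 list. Any covered base in both replicates gave 13 windows in ANT-C and 13 in BX-C (3.42% and 3.82%, against 3.93% of 3R), and full cover gave 1 and 1 (0.263% and 0.294%, against 1.39%). With 20 kb trimmed from each end, ANT-C minus BX-C was 1.23 points ± 0.45, against 0.47 ± 1.53 untrimmed. Requiring 50% of the width, a mean of 33.0% of BX-C clusters were found in the other replicate, against 36.6%.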

Other observations

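Further blocks of the flanks, picked out after their values were seen, were as dense in the combined set as the complexes. On the centromere side of BX-C, 12230001 to 12250000 was 62.6% covered in the combined set, 22.0% in replicate 1 and 24.0% in replicate 2. The block before it, 12210001 to 12230000, was 57.2% covered in the combined set, 9.53% in replicate 1 and 0.805% in replicate 2. At the far end of the telomere-side flank of ANT-C, 3140001 to 3160000 was 56.7% covered in the combined set, 0% in replicate 1 and 30.2% in replicate 2.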
